A study of Mus musculus with 12 samples.

Results

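Mitochondrial fatty acid oxidation and lipid droplet turnover are covered here by 34 genes, taken by symbol from a count table of 53762 gene symbols. All 34 were found in the table, and 33 had enough reads to be among the 16945 genes tested. Read counts came from T cells of the mouse spleen that had shared a culture with cells labelled Res, called partner cells here. These held a control construct (Res_ctrl) or a short hairpin RNA against the fatty acid binding protein gene Fabp7 (Res_shFabp7). The 4 groups, each of 3 libraries, were the control partner at 24 h, the shFabp7 partner at 24 h, the control partner at 48 h and the shFabp7 partner at 48 h. All T cells had a partner, so no level without partner cells was analysed here. Mouse strain and age, the kind of Res cell, the hairpin's sequence or number of clones, T cell stimulation and the way T cells were separated from Res cells are not given in the sources used here. The origin of the replicates (culture, animal or library preparation) is not labelled, so the p-values reflect spread among these libraries alone and that spread may be technical.

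Long-chain fatty acids enter mitochondria as carnitine esters and are shortened in the matrix by a repeated cycle of dehydrogenation, hydration, dehydrogenation and thiolysis. Electrons from the first step pass through the electron transfer flavoprotein to the respiratory chain. Fatty acids in excess are esterified in the endoplasmic reticulum and kept in lipid droplets, from which lipases release them. Resting and memory T cells are known for reliance on fatty acid oxidation, whereas activated effector T cells rely more on glycolysis and on lipid synthesis.

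Libraries held 32.0 to 40.6 M counts, and a count of 0 allows up to 3 counts, or 0.0713 to 0.101 CPM (counts per 1 M reads, TMM-scaled), for counting error only. The T cell label held: all 12 T cell markers were detected, with a summed level of 3952 to 3993, 3884 to 4058, 3080.0 to 3188 and 3104 to 3182 CPM in the 4 groups as listed above. The sums hide changes of single markers. With the shFabp7 partner 1 of the 12 rose and 0 fell at 24 h, and 2 rose and 5 fell at 48 h. These were 8.33% and 58.3% of the list, against 10.9% and 31.6% of all genes. Marker lists of other cell types summed to less than the T cell list. Highest was the natural killer cell list, with 148 to 163 CPM (control) and 137 to 164 CPM (shFabp7) at 24 h. The 12 monocyte and macrophage markers summed to 14 to 15.5 CPM for the control partner at 24 h, 11.4 to 12.9 for shFabp7 at 24 h, 14.3 to 17.7 for the control at 48 h and 13.9 to 15.8 for shFabp7 at 48 h. None of the 5 tested genes among them passed the threshold at 24 h, and Lyz2 fell at 48 h (log2 fold change -0.76 ± 0.25, adjusted p = 0.0173). Of 14 epithelial, mesenchymal and endothelial markers, which summed to 108 to 123, 91.5 to 97.9, 88 to 94.5 and 73.5 to 80.4 CPM, Pecam1 made up most, with 104 ± 7.98 CPM (SD, n = 3) in the first group. Pecam1 fell with the shFabp7 partner at both times (log2 -0.32 ± 0.06 and -0.23 ± 0.06) and Cdh1 fell at 48 h. No marker of the T cell, the monocyte and macrophage, or the epithelial, mesenchymal and endothelial list was at 0 in all libraries. Neutrophil markers (6 of 10 tested, Retnlg at 0 throughout) summed to 6.98 to 12.8, 7.08 to 8.78, 5.38 to 10.03 and 3.33 to 4.85 CPM in the same order, with S100a9 lower for shFabp7 at both times and S100a8 and Ngp lower at 48 h. Dendritic cell (Cd209a at 0 throughout), B cell and natural killer cell markers overlapped between partners at both times, apart from natural killer markers at 48 h (143 to 160.4 against 139 to 143 CPM). Of the 5 natural killer markers tested, 1 fell at 48 h, at least 2-fold, 20% against 31.6% of all genes called. All 5 had a negative sign there. Fabp7 itself had 0 counts in 9 libraries and 3, 1 and 1 counts with the control partner at 48 h, so these T cell libraries say nothing of the knockdown in Res cells.

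Per kilobase of the longest transcript, Ucp2, a mitochondrial carrier of the uncoupling protein family, had the highest level of the 34 genes, at 158 ± 8.03 CPM per kb with the control partner at 24 h (SD, n = 3). The very-long-chain acyl-CoA dehydrogenase gene Acadvl (46.9 ± 2), Etfa, a subunit of the electron transfer flavoprotein (42.1 ± 1.8), and Hadha, the alpha subunit of the trifunctional protein (41.5 ± 0.777 CPM per kb), came next, and the last 2 did not differ beyond their spread. At 48 h Acadvl (62.4 ± 1.7) and the diacylglycerol acyltransferase gene Dgat1 (60.5 ± 3 CPM per kb) stood side by side behind Ucp2 (139.5 ± 16.2). The longest listed transcript need not be the one expressed, so this order may differ from that of transcript levels. The SD covers the spread among libraries only. Ppara, the fatty acid sensing nuclear receptor known for driving oxidation genes in liver, was last of the 34. It had 2, 6 and 3 counts (control) and 5, 1 and 2 counts (shFabp7) at 24 h, and 10, 8 and 2 counts (control) and 10, 4 and 0 counts (shFabp7) at 48 h, too few to test. Etfb, which encodes the other subunit of the electron transfer flavoprotein, was listed at only 2.42 ± 0.34 CPM per kb. In the RefSeq annotation Etfb overlaps Cldnd2, and the part of that overlap in its low count was not tested. In all, 14 of the 34 genes overlap another gene there, among them Echs1 with Paox, Etfdh with Ppid and Bscl2 with Gng3, and their reads may be shared or dropped.

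These genes differed less by partner than by time, and so did all genes tested. Sign left out, the median log2 partner effect of the 33 genes was 0.10 at 24 h and 0.16 at 48 h. Over all genes it was 0.15 and 0.21. The median size of the change over time was 0.58 (control partner) and 0.50 (shFabp7 partner), beside 0.50 and 0.48 over all genes. At 24 h, 1 of 33 genes was higher with the shFabp7 partner and 3 were lower, 12.1% against 10.9% of all genes tested (6.22% up and 4.65% down). After 48 h, 6 were higher and 8 lower, 42.4% against 31.6% of all genes (19.9% up and 11.6% down). The median log2 fold change was -0.04 at 24 h and 0.01 at 48 h, beside 0.00 and 0.01 over all genes, and no gene of the 33 changed 2-fold in either. The 3 libraries of a group lay wholly on 1 side of the other 3 in 13 of 33 genes at 24 h (27.5% over all genes) and in 16 of 33 at 48 h (44.0%). With library totals as scaling, 33.2% of all calls at 24 h and 40.5% at 48 h were increases, against 57.2% and 63.2% with TMM. The 33 genes then gave 3 up and 11 down at 48 h, as they did with upper-quartile scaling. For the change of the partner effect between the times, 1 gene was called up and 0 down, against 4.43% and 1.17% of all genes. The 4 genes called at 24 h were all called at 48 h in the same direction, 1 up (5.15% of all genes) and 3 down (2.69%). Over all genes, 1329 of 1346 called at both times had the same direction. These comparisons share no library but come from 1 fit, with the spread estimated from all 12 libraries. Between 24 and 48 h, 23 genes rose and 6 fell with the control partner, 87.9% against 67.7% of all genes (35.8% up and 32.0% down). With the shFabp7 partner 23 rose and 5 fell, 84.8% against 66.1% (35.9% up and 30.2% down). The median log2 change over time was 0.46 and 0.42, beside 0.04 and 0.06 over all genes, and 27 and 31 of 33 genes had no overlap between the times (68.6% and 71.4% over all genes). These genes had a median level of 41.8 CPM, against 13.6 CPM over all genes tested, and the part of that gap in the shares called was not tested.

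**Figure D1:**
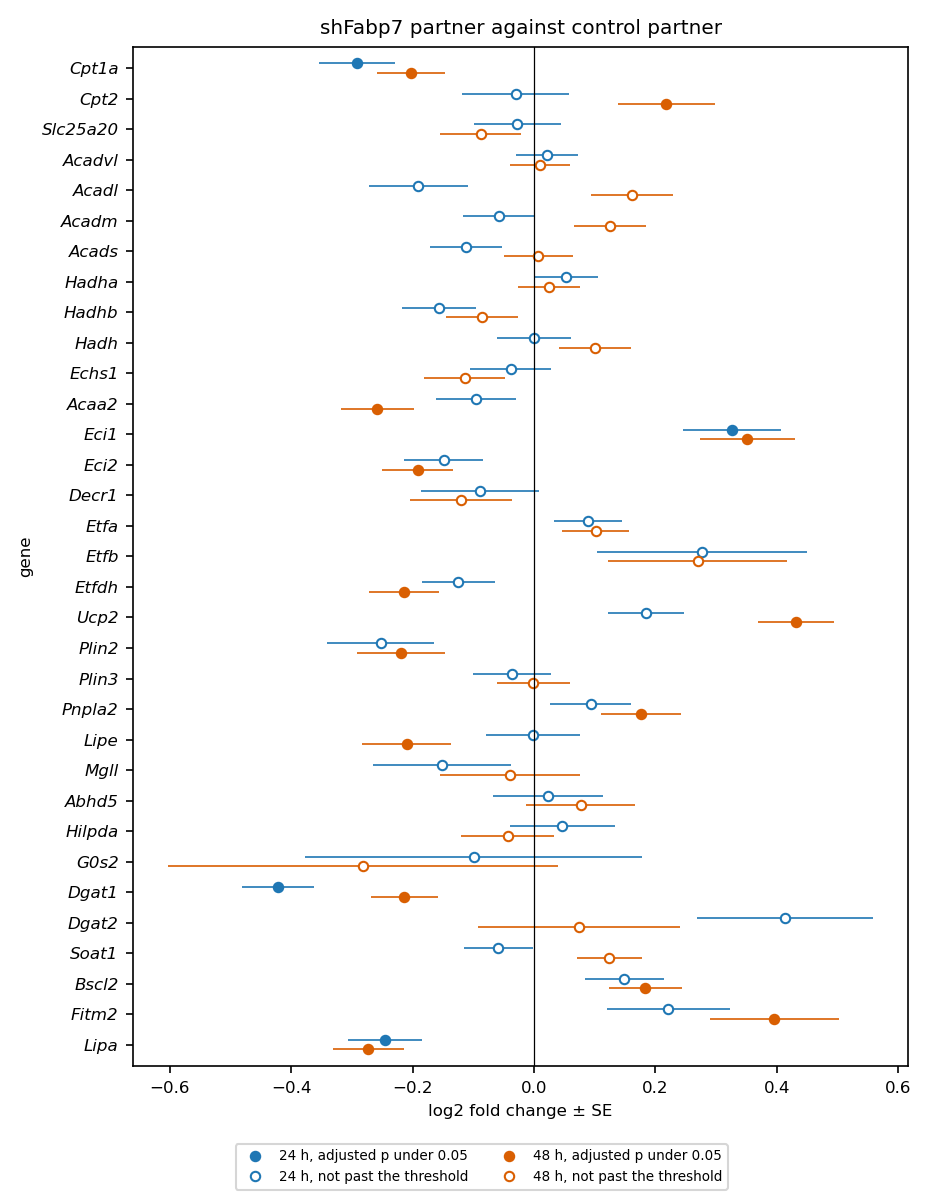
Log2 fold change ± SE (x axis) of the 33 tested genes (y axis, ordered by role) for the shFabp7 partner relative to control, after 24 h (blue) and 48 h (orange), 3 libraries a group. Filled points passed an adjusted p of 0.05. Dgat1 at 24 h (-0.42) is the leftmost point and Ucp2 at 48 h (0.43) the rightmost.

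Genes of the carnitine shuttle, which brings fatty acids into the mitochondrion, differed among themselves with the partner. Cpt1a encodes carnitine palmitoyltransferase 1A, the rate-limiting entry step on the outer membrane. At 24 h its level was 31.4, 30.6 and 30.6 CPM in the 3 libraries of the control partner and 25.2, 26.4 and 24.2 CPM in those of the shFabp7 partner. At 48 h it was 83.4, 79.1 and 74.8 CPM and 65.6, 69 and 71.5 CPM. The shFabp7 libraries were the lower ones at both times, without overlap (log2 fold change -0.29 ± 0.06, adjusted p = 0.00291 at 24 h and -0.20 ± 0.06, adjusted p = 0.00545 at 48 h). Cpt1a rose over time 2.56-fold with the control and 2.72-fold with the shFabp7 partner (log2 1.36 ± 0.06, adjusted p = 5.2e-20 and 1.45 ± 0.06, adjusted p = 2.1e-20). In bulk RNA such as this, fewer cells of a type and less RNA per cell cannot be told apart. Cpt2, the inner membrane transferase that remakes acyl-CoA, went the other way at 48 h, with 21.3, 23.4 and 20.6 CPM for the control and 25.7, 25.7 and 24.6 CPM for the shFabp7 partner (log2 0.22 ± 0.08, adjusted p = 0.0348). This call was lost without control replicate 1 or 3 or shFabp7 replicate 1 or 2 (adjusted p = 0.0766, 0.147, 0.0981 and 0.103), and with 3 other settings (adjusted p = 0.216 with upper-quartile scaling, 0.212 with library totals and 0.0632 with no filter). At 24 h Cpt2 was at 14.1 ± 0.75 and 13.8 ± 1.72 CPM, a difference within the spread. Slc25a20, the carnitine-acylcarnitine carrier, passed for neither partner effect (log2 -0.03 ± 0.07 and -0.09 ± 0.07), except at 48 h as a decrease with upper-quartile scaling and library totals. All 3 shuttle genes rose over time with each partner.

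The Cpt1a promoter window is shown because Cpt1a was both the shuttle gene with the largest change over time and the only 1 that fell with the shFabp7 partner at each time. It covers the 250 bases before the start (chr19:3323051-3323300, plus strand, GRCm38.p6, RefSeq), 5′ to 3′, with the capitals marking the hexamer AGGTCA, recognised by many nuclear receptors, on either strand.
Cpt1a: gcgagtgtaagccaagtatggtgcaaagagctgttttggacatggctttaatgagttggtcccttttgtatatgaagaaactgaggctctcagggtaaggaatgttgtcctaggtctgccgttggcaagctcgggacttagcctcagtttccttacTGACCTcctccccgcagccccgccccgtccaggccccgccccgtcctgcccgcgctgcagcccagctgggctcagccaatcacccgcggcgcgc
RefSeq promoter windows were found for 30 of the 34 genes, 35 windows in all, and 7 of the 35 held AGGTCA or its complement TGACCT, against 4607 of 32851 windows of all genes. The direct repeat of that hexamer bound by PPAR and RXR, AGGTCANAGGTCA on either strand, was in none of the 35 windows and in 11 of all 32851. The GC box GGGCGG was in 21 of the 35 (60.0%, against 32.7% of all). The overlapping windows of Hadha and Hadhb share a GC box and both count here. The windows of all genes were not limited to genes tested, and the part of this in the gap was not tested. These are letter matches in a short window only.

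Of the 9 cycle enzymes of the matrix, 6 rose over time with each partner, beside 30.9% of all genes, and the long-chain dehydrogenase gene Acadl rose most. Acadl was at 13.4, 14.9 and 16.1 CPM with the control and 14.2, 13 and 11.7 CPM in the shFabp7 group at 24 h. At 48 h it was at 42.7, 43.3 and 40.4 and 46.9, 48.5 and 46 CPM, so that every 48 h library lay far above every 24 h library. It rose 2.85-fold with the control and 3.63-fold with the shFabp7 partner (log2 1.51 ± 0.07, adjusted p = 1.4e-18 and 1.86 ± 0.08, adjusted p = 9.1e-21). Its partner effect was -0.19 ± 0.08 at 24 h and 0.16 ± 0.07 at 48 h, neither past the threshold, and the difference between these was 0.35 ± 0.11, adjusted p = 0.0436. Acadl was the only gene of the 33 called for that difference, 3.03% against 5.60% of all genes (4.43% up), and the call was lost in 15 of 19 alternatives. Without a library it was lost in 10 of 12 cases, those other than control replicate 1 at 24 h and control replicate 1 at 48 h (adjusted p up to 0.318). It was also lost with the replicate number as a block (adjusted p = 0.0544).

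Acaa2, a thiolase of the matrix, was at 24.7, 29 and 26.5 CPM and 25.5, 24.7 and 24.9 CPM at 24 h with the control and the shFabp7 partner. By 48 h it was at 60.02, 62.5 and 65.9 and 50.9, 52.9 and 53.8 CPM. It rose 2.35-fold and 2.1-fold over time, and at 48 h it was lower with the shFabp7 partner, without overlap (log2 -0.26 ± 0.06, adjusted p = 0.00103). Of the remaining 7 matrix enzymes none passed for either partner effect. Echs1 and Hadhb passed as decreases at 48 h with upper-quartile scaling and library totals, Hadhb also without control replicate 1 at 48 h, and at 24 h with library totals or the compared groups alone (adjusted p = 0.0333 and 0.0473). Acadvl, the dehydrogenase for the longest chains, was at 102 ± 4.34 and 103 ± 1.65 CPM at 24 h and at 135 ± 3.69 and 136 ± 4.14 CPM at 48 h, with a 95% interval of the log2 partner effect of -0.10 to 0.14 and -0.10 to 0.12. Acads, for short chains, and Hadh, for medium and short chains, rose over time with each partner (log2 0.49 ± 0.06 and 0.61 ± 0.06 for Acads, 0.32 ± 0.06 and 0.42 ± 0.06 for Hadh). Acadm, the medium-chain dehydrogenase, had values of 51.6 ± 2.57 CPM at 24 h and 47.5 ± 2.43 CPM at 48 h with the control partner and passed in none of the comparisons. Over time it passed with the control partner under DESeq2 and RLE scaling and without control replicate 2 at 48 h. Library totals as scaling made it pass for the shFabp7 partner. Echs1, the short-chain hydratase, was at 37, 36.5 and 38.4 CPM at 24 h and 32.4, 35.7 and 31.1 CPM at 48 h with the control partner, and at 33.5, 37.7 and 37.8 and 31.7, 30.2 and 29.8 CPM with the shFabp7 partner, without overlap between the times, and fell slightly with each (log2 -0.17 ± 0.07, adjusted p = 0.021 and -0.25 ± 0.07, adjusted p = 0.00148). With library totals as scaling, which moves the median of all genes by 0.19 with the control and by 0.15 with the shFabp7 partner, Echs1 was at 0.02 and -0.10 and passed in neither. With the control partner the call was also lost with upper-quartile scaling, and without control replicate 1 or 3 at 24 h or control replicate 3 at 48 h (adjusted p = 0.0511, 0.113 and 0.113).

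Hadha and Hadhb encode the subunits of the trifunctional protein, which carries out the last steps of the cycle for long chains. Their starts lie 272 bases apart on opposite strands, so that their upstream windows share 228 bases. The Hadhb window is shown because this stretch lies before both genes (chr5:30155003-30155252, plus strand, GRCm38.p6, RefSeq), 5′ to 3′, with GC boxes in capitals.
Hadhb: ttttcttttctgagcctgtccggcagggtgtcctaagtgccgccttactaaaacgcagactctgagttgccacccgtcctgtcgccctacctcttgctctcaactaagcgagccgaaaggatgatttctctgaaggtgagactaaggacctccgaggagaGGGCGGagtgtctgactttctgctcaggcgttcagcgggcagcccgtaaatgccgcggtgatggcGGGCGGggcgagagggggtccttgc
With the shFabp7 partner the genes went in opposite directions over time, except with library totals as scaling. Hadha was at 170.2, 174 and 176 CPM at 24 h and 157, 161 and 159 CPM at 48 h with the shFabp7 partner, and Hadhb at 69.2, 71.3 and 68.5 and 80.8, 82.9 and 81.7 CPM. All 3 Hadha libraries of 48 h lay below those of 24 h and all 3 Hadhb libraries above (log2 -0.13 ± 0.05, adjusted p = 0.0314 for Hadha and 0.23 ± 0.06, adjusted p = 0.00107 for Hadhb). The difference between these changes was not tested, and with library totals as scaling Hadha was at 0.02 (adjusted p = 0.715). The Hadha call was also lost with upper-quartile scaling, the stricter filter or any 1 library of the shFabp7 partner at 48 h left out (adjusted p up to 0.0832). With the control partner Hadhb rose by 0.16 ± 0.06, adjusted p = 0.0178, lost without control replicate 1 at 24 h or control replicate 2 or 3 at 48 h, with DESeq2 and with the compared groups alone (adjusted p = 0.0573, 0.0536, 0.226, 0.0537 and 0.0548), while Hadha was at -0.10 ± 0.05.

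Auxiliary enzymes, which make the double bonds of unsaturated fatty acids fit the cycle, held the only gene of the 33 that rose with the shFabp7 partner at both times. Eci1, a mitochondrial enoyl-CoA isomerase, was at 17.1, 18.3 and 15.6 CPM with the control and 20.8, 21.4 and 21.7 CPM in the shFabp7 group at 24 h. Its 48 h values were 17.4, 19.6 and 18.2 and 22, 25.6 and 22.9 CPM. The shFabp7 libraries were the higher ones at both times, without overlap, and Eci1 passed in all alternatives (log2 0.33 ± 0.08, adjusted p = 0.00779 and 0.35 ± 0.08, adjusted p = 6.6e-04). Over time Eci1 did not pass with either partner, but did so as an increase with each under upper-quartile scaling and library totals. Eci2, the isomerase of mitochondria and peroxisomes, behaved otherwise. Its level was 29.2, 30.3 and 29.4 CPM and 26.1, 27.6 and 26.5 CPM at 24 h and 58.5, 64.2 and 68.7 and 56.7, 56.5 and 54.4 CPM at 48 h, so that it rose 2.15-fold and 2.09-fold over time. At 48 h Eci2 was lower with the shFabp7 partner (log2 -0.19 ± 0.06, adjusted p = 0.0119), a call lost without control replicate 3 or shFabp7 replicate 3 (adjusted p = 0.12 and 0.0684). Decr1, the dienoyl-CoA reductase, was at 8.76, 10.5 and 9.56 CPM and 9.04, 9.15 and 8.95 CPM at 24 h and at 18.6, 20.8 and 22.4 and 19.8, 19.1 and 17.9 CPM at 48 h. It rose 2.14-fold and 2.1-fold over time and passed for neither partner effect.

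Electron transfer genes rose over time with each partner. Etfdh, the oxidoreductase that hands electrons to ubiquinone, was at 59.1, 64.1 and 66.8 CPM with the control and 55.7, 52.8 and 55.3 CPM in the shFabp7 group at 48 h, without overlap (log2 -0.21 ± 0.06, adjusted p = 0.0041). At 24 h it was at 44, 43.2 and 40.5 and 37.8, 39.2 and 40.1 CPM, also without overlap but not past the threshold (adjusted p = 0.194). Etfa and Etfb did not pass for the partner. Over time Etfdh changed by log2 0.58 ± 0.06 and 0.49 ± 0.06, Etfa by 0.18 ± 0.06 and 0.20 ± 0.06 and Etfb by 0.92 ± 0.16 and 0.92 ± 0.16 with the control and the shFabp7 partner.

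Ucp2 had the largest partner effect of the 33 genes at 48 h. It was at 603, 621 and 665 CPM with the control and 731, 677 and 738 CPM in the shFabp7 group at 24 h, and at 631, 524 and 514 and 722, 772 and 758 CPM at 48 h. The shFabp7 libraries lay above the control libraries at both times, and the change at 48 h was 1.35-fold (log2 0.43 ± 0.06, adjusted p = 2.3e-06). At 24 h it was 0.18 ± 0.06, adjusted p = 0.0518, not past the threshold, but past it in 6 of 14 alternatives, DESeq2 among them (adjusted p = 0.0128). Among libraries of the control partner at 48 h, replicate 1 was the highest. The change of the Ucp2 partner effect between the times was log2 0.25 (95% interval 0.04 to 0.45, adjusted p = 0.097). It passed the threshold only without that library, as did the change for Dgat1 (log2 0.21, adjusted p = 0.13 with all libraries). Over time Ucp2 fell slightly with the control partner (log2 -0.18 ± 0.06, adjusted p = 0.0124), with overlapping groups, and library totals as scaling put it at 0.01. That call was lost with upper-quartile scaling (adjusted p = 0.269), and without control replicate 3 at 24 h or control replicate 2 or 3 at 48 h (adjusted p = 0.117, 0.077 and 0.0928).

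**Figure D2:**
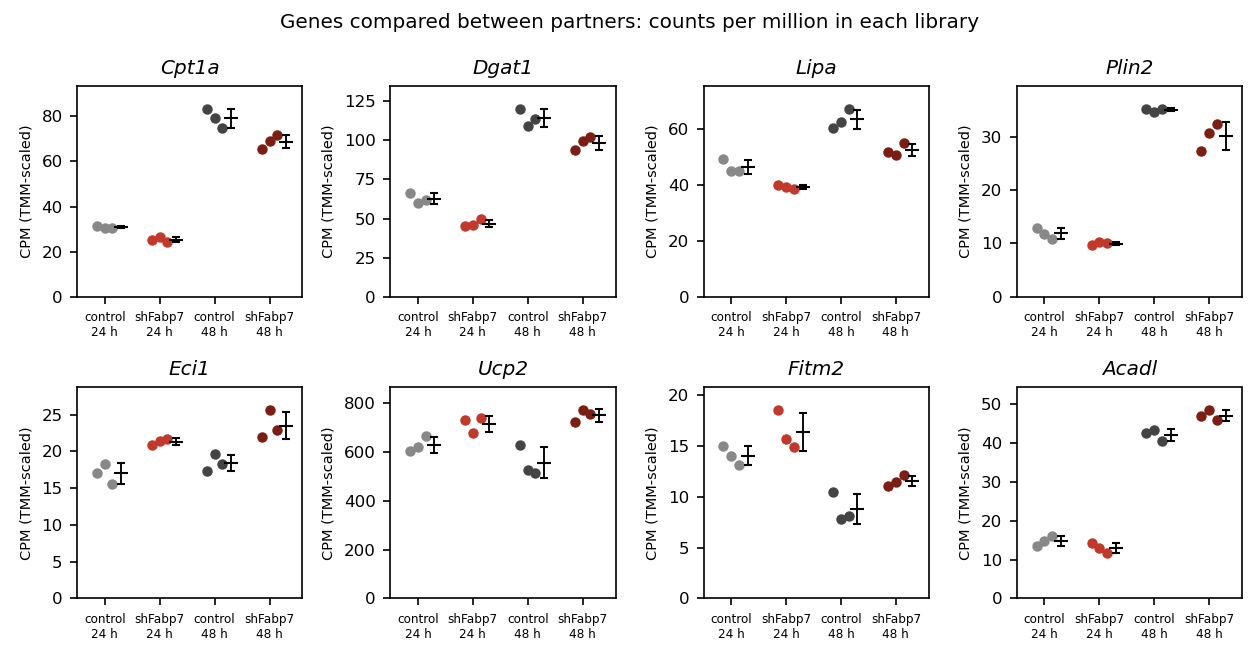
TMM-scaled CPM (y axis, from 0) of 8 genes in each of the 12 libraries, by group (x axis). Points are libraries and the bar beside them is the mean ± SD (n = 3). Cpt1a, Dgat1, Lipa and Plin2 are lower and Eci1 and Ucp2 are higher with the shFabp7 partner at both times, without overlap. Plin2 and Ucp2 did not pass the threshold at 24 h.

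Plin2, the perilipin that coats cytosolic droplets and is stable only on them, and Acadl rose most of the 33 genes over time. The level of Plin2 was 12.9, 11.8 and 10.9 CPM with the control and 9.61, 10.2 and 10.04 CPM in the shFabp7 group at 24 h. By 48 h it was 35.2, 34.7 and 35.2 CPM and 27.3, 30.6 and 32.4 CPM. It rose 2.95-fold and 3.02-fold (log2 1.56 ± 0.08, adjusted p = 2.2e-18 and 1.60 ± 0.08, adjusted p = 4.0e-18). The shFabp7 libraries were the lower ones at both times without overlap, a difference past the threshold at 48 h (log2 -0.22 ± 0.07, adjusted p = 0.0185) and not at 24 h (-0.25 ± 0.09, adjusted p = 0.057). The 48 h call was lost without control replicate 3 or shFabp7 replicate 1 (adjusted p = 0.0505 and 0.163). The 24 h value passed in 4 of 14 alternatives, among them the omission of control replicate 3 (adjusted p = 0.0469). Macrophages also express Plin2, and the monocyte and macrophage markers given above were lower with the shFabp7 partner at 24 h, without overlap, and overlapped at 48 h. Their part in the Plin2 values was not tested. Plin3, a perilipin of small and new droplets, was at 42.9 ± 2.81 and 42.9 ± 1.16 CPM at 48 h with a 95% interval of the log2 partner effect of -0.14 to 0.14, and rose over time by log2 0.52 ± 0.06 and 0.56 ± 0.06.

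The Plin2 promoter window (chr4:86670060-86670309, minus strand, GRCm38.p6, RefSeq) is shown beside that of Cpt1a because both genes rose more than 2-fold over time and were lower with the shFabp7 partner at 48 h. Capitals again mark AGGTCA or its complement.
Plin2: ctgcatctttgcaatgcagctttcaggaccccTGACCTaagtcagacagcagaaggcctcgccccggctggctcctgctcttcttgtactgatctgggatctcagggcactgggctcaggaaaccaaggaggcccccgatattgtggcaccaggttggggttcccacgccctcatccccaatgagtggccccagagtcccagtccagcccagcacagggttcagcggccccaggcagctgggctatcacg
Both windows held 1 such hexamer, which 7 of the 30 genes with a window had. Eci2 also rose more than 2-fold and was lower at 48 h, and its window held 0. Acaa2 did so too and has no window here.

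Of the 6 genes of triglyceride lipolysis, Hilpda and G0s2, which both encode small inhibitors of the triglyceride lipase, moved most over time and in opposite directions. Hilpda, also known as a hypoxia-inducible gene, was at 20.4, 22.8 and 16.3 CPM and 20.5, 20.7 and 20.3 CPM at 24 h and at 42, 48.8 and 43.7 and 42.8, 43.3 and 44.5 CPM at 48 h with the control and the shFabp7 partner. It rose 2.26-fold and 2.12-fold (log2 1.18 ± 0.08, adjusted p = 6.8e-14 and 1.09 ± 0.08, adjusted p = 6.0e-13). G0s2 was at 1.97, 2.1 and 1.45 CPM and 1.79, 1.58 and 1.77 CPM at 24 h and at 0.327, 1.18 and 1.13 and 0.784, 0.735 and 0.665 CPM at 48 h, and fell in each (log2 -1.05 ± 0.29, adjusted p = 0.00203 and -1.23 ± 0.31, adjusted p = 6.6e-04). Without control replicate 1 at 48 h, the lowest library, the change of G0s2 with the control partner was -0.66 (adjusted p = 0.0261). Neither gene passed for a partner effect. Pnpla2, the triglyceride lipase that both act on, was at 84.1 ± 5.15 and 89.7 ± 4.56 CPM at 24 h and at 106, 85.7 and 91.2 and 98.8, 109 and 112 CPM at 48 h. Its groups overlapped at 48 h (log2 0.18 ± 0.07, adjusted p = 0.0397), and the call was lost in 8 of 14 alternatives, which included leaving out control replicate 2 or 3 or shFabp7 replicate 2 or 3 (adjusted p = 0.251, 0.138, 0.13 and 0.163). Over time Pnpla2 rose by log2 0.17 ± 0.07 and 0.25 ± 0.07, and with the control partner the call was lost with DESeq2 or RLE scaling and without control replicate 2 at 24 h or 1 at 48 h (the last 2 at adjusted p = 0.0925 and 0.285). Abhd5, the activator of Pnpla2, stayed between 9.60 and 11.8 CPM in the 12 libraries and passed in no comparison.

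Lipe, the hormone-sensitive lipase gene, was at 33.3, 31.3 and 30.5 CPM with the control and 28.4, 27.9 and 25.8 CPM in the shFabp7 group at 48 h (log2 -0.21 ± 0.07, adjusted p = 0.0258). At 24 h it was at 20.2 ± 0.887 and 20.1 ± 2.15 CPM, with no call. The 48 h call was lost without control replicate 1 or 2 or shFabp7 replicate 2 or 3 (adjusted p = 0.0902, 0.053, 0.0508 and 0.148). Lipe rose over time with each partner (log2 0.65 ± 0.07 and 0.44 ± 0.08). Mgll, which cleaves the last fatty acid from monoacylglycerol, fell with the control partner, from 8.36, 8.03 and 7.45 to 6.43, 6.53 and 5.54 CPM (log2 -0.37 ± 0.11, adjusted p = 0.00491, or adjusted p = 0.167 with library totals as scaling). Its value with the shFabp7 partner was -0.25 ± 0.12, adjusted p = 0.0531, which passed in 4 of 14 alternatives (adjusted p = 0.0293 with DESeq2, 0.0269 with RLE scaling, 0.0372 with the compared groups alone and 0.0292 without shFabp7 replicate 2 at 24 h). Lipa, the acid lipase of lysosomes, was lower with the shFabp7 partner at both times. It was at 49.4, 44.8 and 45.1 CPM with the control and 39.9, 39.1 and 38.5 CPM in the shFabp7 group at 24 h, and at 60.4, 62.4 and 67.2 and 51.9, 50.5 and 55 CPM at 48 h, without overlap (log2 -0.25 ± 0.06, adjusted p = 0.00779 and -0.27 ± 0.06, adjusted p = 4.1e-04). The 24 h call was lost without control replicate 1 (adjusted p = 0.096). Lipa is also abundant in macrophages, whose markers are given above, and their part was not tested. Over time Lipa rose by log2 0.45 ± 0.06 and 0.42 ± 0.06.

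Genes of ester synthesis and droplet formation held the largest partner effect at 24 h and also moved in opposite directions over time. Dgat1 and Dgat2 encode unrelated enzymes for the same last step of triglyceride synthesis. Dgat1 was at 66.4, 59.9 and 62 CPM with the control and 45.1, 45.8 and 49.6 CPM in the shFabp7 group at 24 h, and at 120.3, 109 and 113 and 93.8, 99.3 and 102 CPM at 48 h. It was lower with the shFabp7 partner at both times, without overlap, in all alternatives (log2 -0.42 ± 0.06, adjusted p = 3.1e-05 and -0.21 ± 0.06, adjusted p = 0.00294). Dgat2 was scarcer, at 4.39, 4.3 and 5.26 CPM and 6.6, 5.94 and 6.07 CPM at 24 h and at 2.59, 2.01 and 2.29 and 2.09, 2.55 and 2.63 CPM at 48 h. At 24 h the shFabp7 libraries of Dgat2 lay above the control libraries, at 0.41 ± 0.14, adjusted p = 0.0599, which passed in 4 of 14 alternatives (DESeq2, adjusted p = 0.0269, and without control replicate 3, adjusted p = 0.0379). At 48 h they overlapped (0.07 ± 0.17). Over time Dgat1 rose 1.82-fold and 2.1-fold (log2 0.86 ± 0.06 and 1.07 ± 0.06), while Dgat2 fell (log2 -1.02 ± 0.16, adjusted p = 7.0e-07 and -1.36 ± 0.15, adjusted p = 1.7e-09), with every 48 h library below every 24 h library.

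Fitm2, a protein of droplet budding from the endoplasmic reticulum, was at 15, 14 and 13.1 CPM and 18.5, 15.7 and 14.9 CPM at 24 h with the control and the shFabp7 partner. After 48 h it stood at 10.4, 7.77 and 8.13 and 11.1, 11.5 and 12.1 CPM. It was higher with the shFabp7 partner at 48 h, without overlap (log2 0.40 ± 0.11, adjusted p = 0.00394), and fell over time with each partner (log2 -0.68 ± 0.11 and -0.50 ± 0.10). Bscl2, the gene of seipin, which shapes new droplets, was at 64.1, 56.6 and 55.8 CPM and 63.8, 67.1 and 69.6 CPM at 48 h, with overlap between the partners (log2 0.18 ± 0.06, adjusted p = 0.018). That call was lost with upper-quartile scaling or library totals and without control replicate 2 or 3 or shFabp7 replicate 2 or 3 (adjusted p = 0.0916, 0.103, 0.0566 and 0.0979). Bscl2 rose 1.94-fold and 1.99-fold over time. Soat1, which makes cholesterol esters, rose 1.73-fold and 1.97-fold and was at 0.12 ± 0.05, adjusted p = 0.0769 for the partner at 48 h. With DESeq2 the 48 h partner effect of Soat1 passed as an increase. Among droplet genes, then, Plin2, Hilpda, Dgat1, Soat1 and Bscl2 rose over time and Dgat2, Fitm2 and G0s2 fell, with either partner and under every alternative run.

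**Figure D3:**
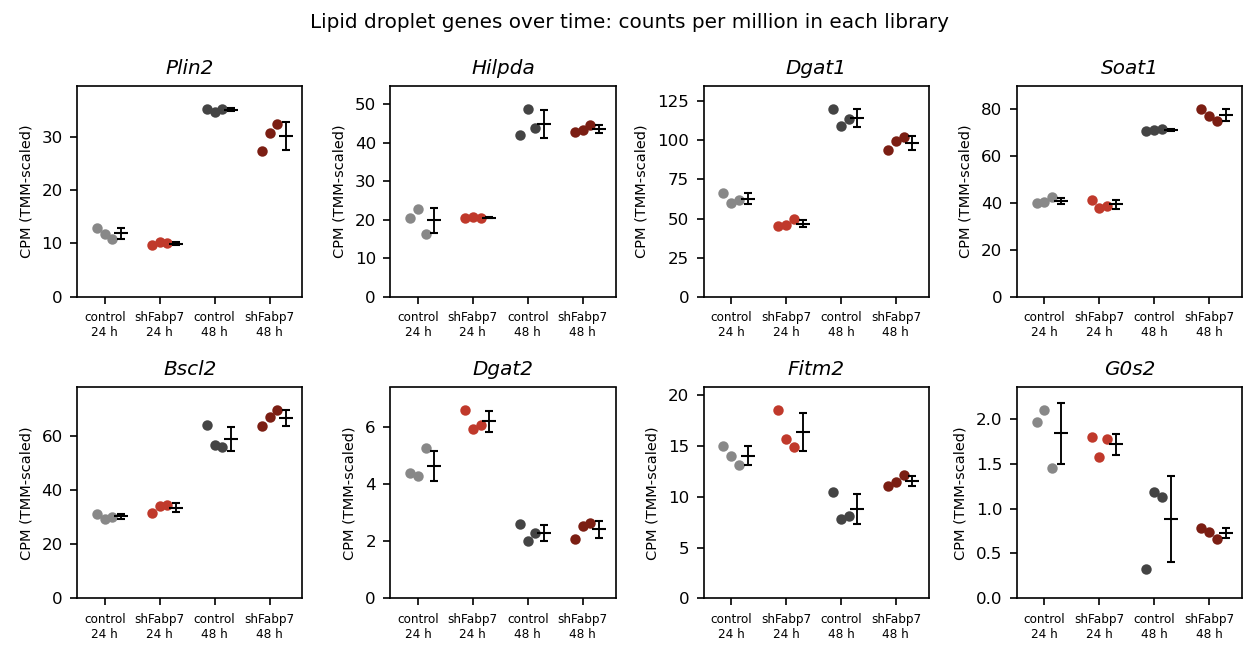
TMM-scaled CPM (y axis, from 0) of 8 lipid droplet genes in each of the 12 libraries, by group (x axis). Points are libraries and the bar beside them is the mean ± SD (n = 3). The first 5 genes are higher and the last 3 lower at 48 h than at 24 h with either partner.

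Over both partners, 23 of the 33 genes rose with each (30.9% of all genes did) and 4 fell with each (26.7%). At least 2-fold increases with each partner were seen in 7 genes (15.1% of all genes), Cpt1a, Acadl, Acaa2, Eci2, Decr1, Plin2 and Hilpda. At least 2-fold decreases with each were seen in 2 (3.11%), G0s2 and Dgat2. The other genes that fell with each were Echs1 and Fitm2. Among the 18 oxidation genes, from the shuttle to electron transfer, 14 rose with each partner. Of 14 droplet and lipase genes, 9 rose with each. Over the same time 8 of 12 T cell markers fell with each partner, beside 32.0% (control) and 30.2% (shFabp7) of all genes. Their summed level with the control partner was 3952 to 3993 CPM at 24 h and 3080.0 to 3188 CPM at 48 h. Dendritic cell markers summed to 10.9 to 13.2 CPM at 24 h and 32.7 to 37.2 CPM at 48 h with the control, and to 11.3 to 12 and 34.3 to 36.5 CPM with the shFabp7 partner. Of the 4 tested, Zbtb46, Itgax and Batf3 rose and Flt3 fell with each partner, beside 30.9% up and 26.7% down with each over all genes. B cell markers summed to 14.5 to 16.4 CPM at 24 h and 21.2 to 25.3 CPM at 48 h with the control, and to 12.7 to 17.4 and 21.4 to 22.8 CPM with the shFabp7 partner. Of the 9 tested, 3 rose and 0 fell with the control partner, 33.3% against 67.7% of all genes (35.8% up). With the shFabp7 partner 4 rose and 1 fell, 55.6% against 66.1% (35.9% up and 30.2% down). The part of these markers in the changes over time was not tested.

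**Figure D4:**
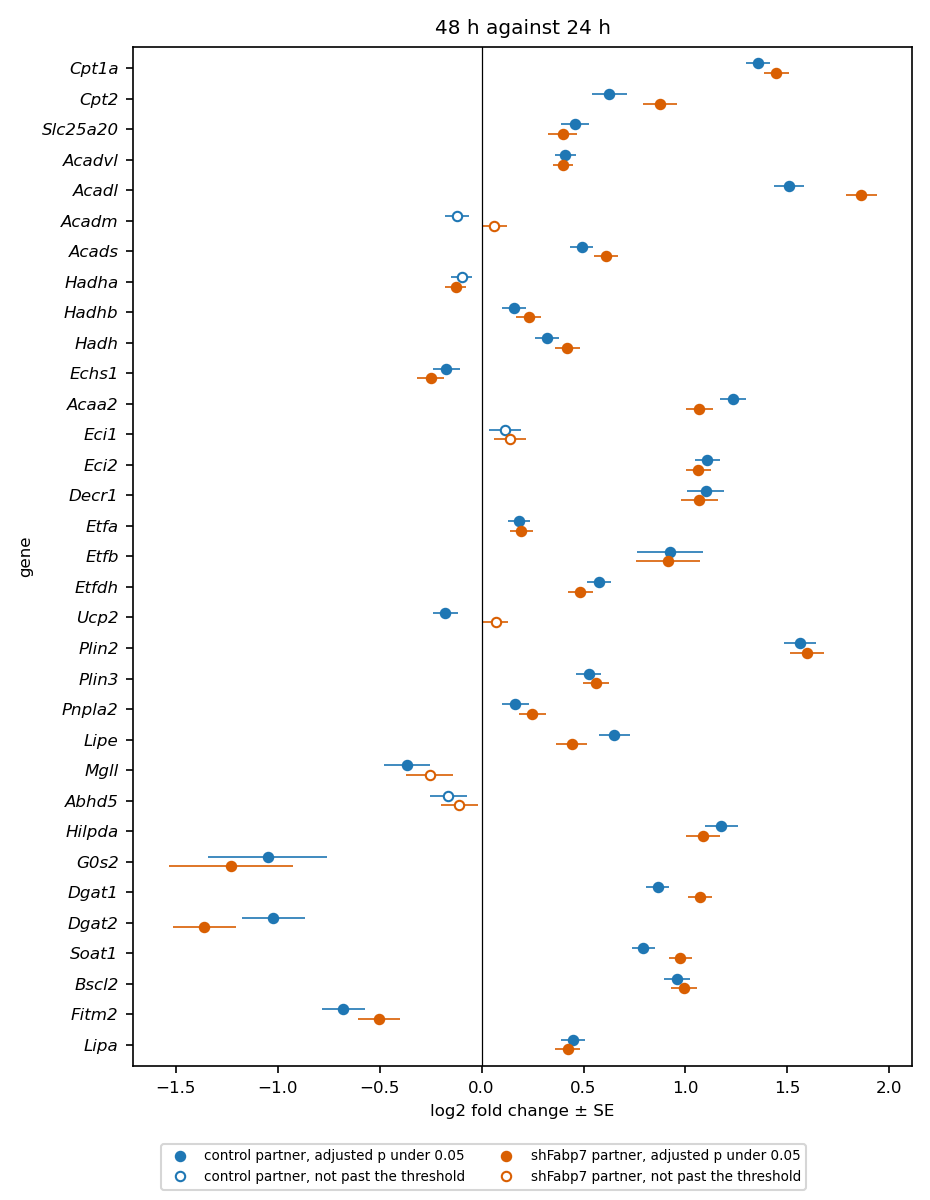
Log2 fold change ± SE (x axis) of the 33 tested genes (y axis, ordered by role) from 24 to 48 h with the control partner (blue) and the shFabp7 partner (orange), 3 libraries a group. Filled points passed an adjusted p of 0.05. Acadl (1.86) and Plin2 lie farthest right and Dgat2 (-1.36) farthest left.

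Other genes of the same pathways were taken from a list of 75, of which 63 were tested. At 24 h 2 rose and 3 fell with the shFabp7 partner, and at 48 h 13 rose and 11 fell, 7.94% and 38.1% of the 63 against 10.9% and 31.6% of all genes. Rxra, the retinoid X receptor that pairs with PPARs, rose at both times, from 38.7 ± 1.01 to 47.6 ± 2.31 CPM at 24 h and from 30.7 ± 4.58 to 46.4 ± 4.3 CPM at 48 h (log2 0.30 ± 0.08, adjusted p = 0.0139 and 0.59 ± 0.08, adjusted p = 1.1e-06). Acaca, the cytosolic acetyl-CoA carboxylase whose product malonyl-CoA inhibits Cpt1a, rose with it (log2 0.24 ± 0.05, adjusted p = 0.0042 and 0.40 ± 0.05, adjusted p = 6.6e-07). Acacb, the carboxylase of the mitochondrial surface, fell at 48 h (log2 -0.40 ± 0.10, adjusted p = 0.00193). In triglyceride synthesis 5 of 11 genes rose and 1 fell at 48 h, beside 19.9% up and 11.6% down over all genes, with the glycerol kinase gene Gk at 0.42 ± 0.08, adjusted p = 1.4e-04. For the change of the partner effect between the times, 3 of the 63 were called up and 1 down. This was 6.35% against 5.60% of all genes (4.43% up and 1.17% down). Those up were Gk (log2 0.52 ± 0.13, adjusted p = 0.0116), the mitochondrial thioesterase gene Acot2 (0.43 ± 0.13, adjusted p = 0.0447) and Hsd17b4, a peroxisomal oxidation enzyme (0.28 ± 0.08, adjusted p = 0.0356). Lpin1 was called down (-0.29 ± 0.09, adjusted p = 0.0474). Single genes of this list were not followed through the alternatives. Among the genes that fell at 24 h were Acox3, a peroxisomal acyl-CoA oxidase (-0.20 ± 0.06, adjusted p = 0.0418), and Lpin2, a phosphatidate phosphatase (-0.20 ± 0.05, adjusted p = 0.0139). After Acacb, the largest decreases past the threshold at 48 h were in the mitochondrial genes Acot13 (-0.32 ± 0.09, adjusted p = 0.00745) and Acadsb (-0.29 ± 0.07, adjusted p = 0.00205), and Acot2 rose (0.49 ± 0.10, adjusted p = 2.4e-04).

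Over time 34 of the 63 rose and 20 fell with the control partner, and 32 rose and 18 fell with the shFabp7 partner (85.7% and 79.4%, against 67.7% and 66.1% of all genes). The largest increase was in Cpt1c, a brain-type paralog of Cpt1a, from 0.588 ± 0.325 to 7.49 ± 0.792 CPM and from 0.673 ± 0.345 to 7.66 ± 0.859 CPM (log2 3.69 ± 0.25, adjusted p = 2.9e-13 and 3.51 ± 0.25, adjusted p = 8.1e-13). Next among the called increases were Pnpla3 and Lpin3 with the control partner (2.81 ± 0.74 and 2.04 ± 0.26), and Prkaa2 and Pnpla3 (2.37 ± 0.46 and 2.23 ± 0.77) with the shFabp7 partner. Acot2 (log2 -1.58 ± 0.09 and -1.14 ± 0.09) and Acaca (-0.83 ± 0.05 and -0.67 ± 0.05) were the largest decreases past the threshold with each partner, followed by the coactivator gene Ppargc1b with the control (-0.69 ± 0.09) and Aup1 with the shFabp7 partner (-0.52 ± 0.05). Perilipin genes of fat storing tissue, Plin1, Plin4 and Plin5, were among 12 genes left out for low counts, none of which had more than 14 counts in a library.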

How the data were processed

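RNA was sequenced from 12 libraries of mouse spleen T cells. The authors deposited an unnormalized count table with 1 column per library. The tools named in the submitters' processing notes are HTSeq 0.6.1p1, TopHat2 2.0.13 and CASAVA 1.8.2, with build GRCm39. Settings, strand mode and annotation are not given in the sources used here, and overlapping genes could not be separated. From the counts, genes were kept with filterByExpr (minimum count 10, minimum total 15), scaled by TMM and tested with edgeR 4.0.16 quasi-likelihood (robust, R 4.3.3), 1 coefficient per group over all 12 libraries. P-values were adjusted (Benjamini-Hochberg, threshold 0.05) over all 16945 genes for 5 contrasts. All replicate pairs differed by more than counting noise (chi-square over its degrees of freedom 4.20 to 13.9), and each library counted as 1 replicate. Alternatives were DESeq2 1.42.0, other scalings and filters, a fit on the compared groups, a replicate block and the omission of each library. A stricter filter asked for 1 CPM in 3 samples and 100 counts. The procedure was tested on simulated data. Lengths (GENCODE M21) and promoter windows (RefSeq) are of build GRCm38 and were matched by symbol. Intervals of log2 changes are 95% intervals, the SE times a t quantile on 8 residual degrees of freedom. Values in all libraries are given for genes past the threshold for the partner, its change or, for the largest, time. The values of 1 gene of the wider pathway list are not reported here. Members and lists were chosen with earlier results of these data known.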

Additional observations from a re-analysis of the deposited data

Results flagged for a closer look

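The partner effect on Acadl was called as different between 24 and 48 h, a call lost in 15 of 19 alternatives. Acadl was the only gene of the 33 so called, 3.03% against 5.60% of all genes. Its partner effect passed the threshold at neither time. The shFabp7 against control change was -0.19 ± 0.08 on the log2 scale at 24 h and 0.16 ± 0.07 at 48 h, and the interaction term of edgeR's fit gave 0.35 ± 0.11, adjusted p = 0.0436. At 24 h the libraries overlapped, at 13.4, 14.9 and 16.1 against 14.2, 13 and 11.7 CPM, and at 48 h they did not, at 42.7, 43.3 and 40.4 against 46.9, 48.5 and 46 CPM. The value kept its sign in all 19 alternatives (0.24 to 0.38), with adjusted p from 0.0309 to 0.318.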

How the results depend on the processing

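Of the calls among the 33 genes, 3 of 4 at 24 h and 8 of 14 at 48 h passed in every alternative, as did 24 of 29 over time for the control and 26 of 28 for the shFabp7 partner. At 24 h, 3 genes rose with DESeq2, RLE scaling or the compared groups alone and 2 with no filter, against 1, and 5 fell with library totals, against 3. At 48 h, 3 rose and 11 fell with upper-quartile scaling or library totals, against 6 and 8. DESeq2 gave 7 up, Soat1 being the gene added, and 8 down. No filter, the stricter filter and the compared groups alone each gave 5 up and 8 down. The 1 call for the change of the partner effect became 0 with RLE, upper-quartile, library totals, no filter or the replicate block. Over time 3 genes fell with library totals, against 6 (control partner) and 5 (shFabp7 partner). With library totals Echs1, Ucp2 and Abhd5 with the control partner were at 0.0165, 0.0102 and 0.0271, and Hadha with the shFabp7 partner was at 0.0226, each on the other side of 0. The change of the G0s2 partner effect was -0.18, and -0.566 to 0.0808 with 1 library left out, above 0 without control replicate 2 or 3 at 48 h. Scaling moved the median of all genes by 0.19 and 0.15 over time with library totals and by 0.10 with the control partner under upper-quartile scaling. Leaving out 1 library gave 1 to 3 genes up and 2 to 4 down at 24 h, 3 to 5 up and 6 to 8 down at 48 h, and 0 to 3 up for the change. The rise at 24 h came without control replicate 3 (3 genes) or shFabp7 replicate 2 (2 genes), the drop to 3 at 48 h without shFabp7 replicate 2 or control replicate 3, and the 3 for the change without control replicate 1 at 48 h. Over time 22 to 23 rose and 4 to 7 fell with the control partner, and 23 rose and 4 to 6 fell with the other. Of all genes, 949 to 2525 were then called at 24 h (949 without control replicate 1, 1045 without shFabp7 replicate 1), against 1842. For the change 319 to 1680 were called, against 949, a shift over 1.5 times in 11 of 12 cases, all but control replicate 1 at 24 h. It was 1680 without control replicate 1 at 48 h and 319 without shFabp7 replicate 2 at 24 h, and the cause was not tested.

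Of all calls at 24 h 57.2% were increases, against 71.9% with RLE, 73.1% with DESeq2, 42.1% with upper-quartile scaling and 33.2% with library totals. At 48 h it was 63.2%, against 39.9% and 40.5% with the last 2. For the change it was 79.0%, against 48.9% and 61.9%. Over time it was 52.8% and 54.3%, against 67.2% and 66.4% with library totals. Libraries that share a replicate number did not deviate together (correlation -0.07 to 0.01 over 12 pairs, against -0.04 to 0.07 between different numbers, and not every library correlated best with its own number), so the numbers were not taken as pairs. With the replicate number as a block the 33 genes gave 1 up and 3 down at 24 h, 6 up and 8 down at 48 h, and over time 23 up with either partner and 6 or 5 down. At this depth genes near the limit of 3 counts, such as Ppara, could not be compared.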
